A study of Mus musculus with 6 samples.

Results

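Toll-like receptor transcripts were examined in neutrophils sorted from the peripheral blood (PB) of mice with and without ligation-induced periodontitis. The receptors are 10 genes of the 29097 listed in the deposited expression table, taken by gene name: Tlr1, Tlr2, Tlr4, Tlr5 and Tlr6, whose proteins act at the cell surface, and Tlr3, Tlr7, Tlr8, Tlr9 and Tlr13, whose proteins act in endosomes. The 3 libraries of the control group (Ctrl) came from unligated mice, and the 3 libraries of the group labelled Lig, called LIP here, came from mice with silk ligatures around the second molars of the upper and lower jaws for 14 d. All animals were male wild-type C57BL/6 mice, 8 weeks old. Neutrophils were sorted as CD45+CD11b+Ly6G+ cells, each library pooled 5 mice, and RNA was amplified by Smart-seq2, a full-length cDNA protocol for small inputs. Because pools of cells were measured, fewer cells of a type and less RNA per cell cannot be told apart.

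Toll-like receptors are membrane proteins with an outward leucine-rich repeat domain that binds microbial molecules and a cytoplasmic TIR domain that recruits adaptor proteins. TLR2 pairs with TLR1 or TLR6 to bind bacterial lipoproteins, TLR4 binds lipopolysaccharide (LPS) together with MD-2 and CD14, and TLR5 binds flagellin. The endosomal receptors bind nucleic acids: TLR3 binds RNA duplexes, TLR7 and TLR8 sense RNA fragments, TLR9 binds DNA with unmethylated CpG, and TLR13 binds a stretch of bacterial ribosomal RNA. Most of them signal through MyD88 to NF-kB, and the endosomal receptors need UNC93B1 to leave the endoplasmic reticulum. Neutrophils use these receptors to respond to bacteria, a response that includes cytokine release and longer survival.

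The LIP and Ctrl libraries differed in many genes beyond the receptors. Total counts lay between 52186555 and 57262379 per library. With edgeR's quasi-likelihood test on the counts, 5601 of 10440 tested genes (53.6%) passed a Benjamini-Hochberg adjusted p of 0.05. Of all tested genes, 26.5% passed higher in LIP and 27.2% lower. The 21 listed genes of mature neutrophils took 1.84 to 1.98% of counts in the Ctrl libraries and 5.44 to 5.79% in the LIP libraries, and 21 of 21 rose, with a median log2 fold change of 1.84. Haemoglobin genes took 14.6 to 15.0% of counts in Ctrl and 1.55 to 1.61% in LIP. The 16 B cell markers summed to 1.00 to 1.05% of counts in Ctrl against 0.167 to 0.182% in LIP, and 16 of 16 fell. The 15 T cell markers summed to 0.0915 to 0.0967% against 0.0163 to 0.0194%, and 15 of 15 fell. Thus the RNA labelled as neutrophil held erythroid, B cell and T cell transcripts in both groups, in larger amounts in Ctrl, and the neutrophil genes themselves stood higher in LIP. Of 14 monocyte and macrophage markers in the table, 11 rose, and their sum went from 0.183 to 0.220% up to 0.275 to 0.292% of counts. No listed marker in the table was at 0 in every library.

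The 10 receptors spanned several orders of magnitude in level, and their order was set by Tlr2 and Tlr13. In fragments per kilobase of transcript and library size (FPKM), which divides by transcript length and so allows genes to be compared, Tlr2 stood at 114 ± 27.2 in the Ctrl libraries and Tlr13 at 37.8 ± 11.3 (SD, n = 3, here and for each ± value below). Tlr6 (9.10 ± 2.67 FPKM) and Tlr1 (7.73 ± 2.25 FPKM) followed with overlapping values. Tlr7 stood at 4.87 ± 0.338 FPKM, and below it Tlr4 (2.57 ± 0.809 FPKM) and Tlr8 (2.45 ± 0.723 FPKM) overlapped each other. Tlr9 (0.959 ± 0.495 FPKM), Tlr5 (0.324 ± 0.0943 FPKM) and Tlr3 (0.114 ± 0.0261 FPKM) closed the order. Among the 10 receptors, the Ctrl libraries, which also held RNA of other cells, thus carried mainly transcripts of the lipoprotein receptor and of the bacterial ribosomal RNA receptor.

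In the LIP libraries Tlr2 (324 ± 6.19 FPKM), Tlr13 (113 ± 12.0 FPKM) and Tlr6 (27.9 ± 1.32 FPKM) kept the top places in the order, with no overlap between neighbours. Tlr4 stood next at 12.4 ± 0.332 FPKM, above Tlr1 at 8.05 ± 1.36 FPKM, where it had been below Tlr1 in Ctrl. Tlr1 overlapped Tlr7 (7.84 ± 1.18 FPKM), and Tlr7 overlapped Tlr8 (6.22 ± 0.623 FPKM). Tlr5 (1.21 ± 0.148 FPKM) now stood above Tlr9 (0.462 ± 0.309 FPKM), and Tlr3 was last at 0.0250 ± 0.0421 FPKM.

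**Figure D1:**
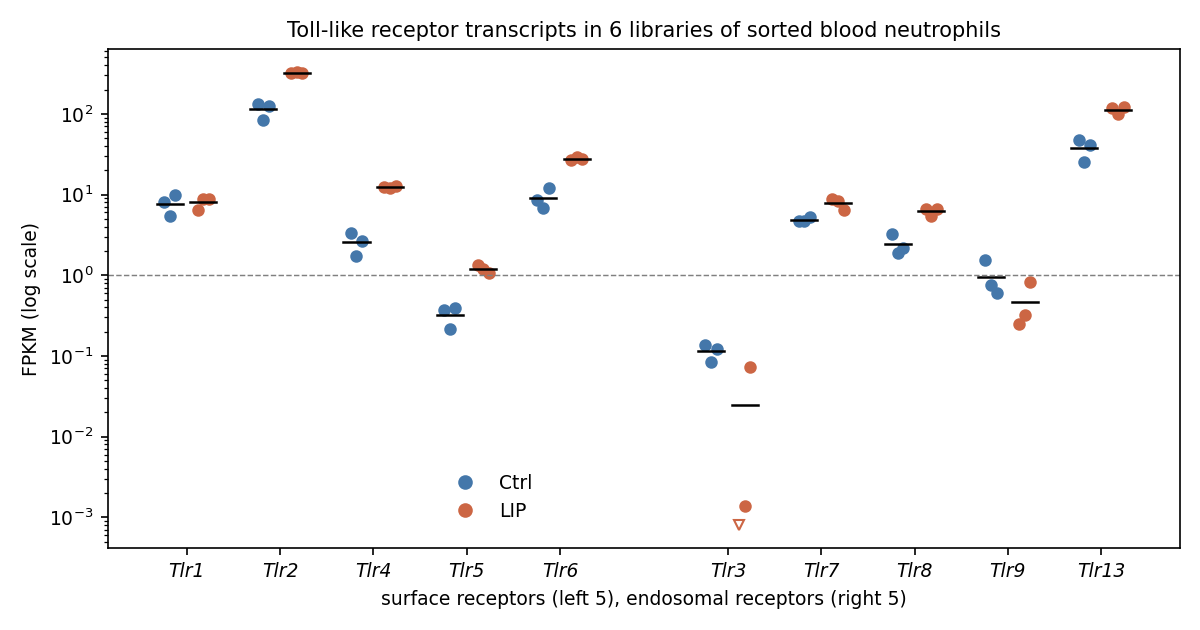
FPKM of the 10 Toll-like receptors in each library on a log scale, with Ctrl in blue, LIP in orange, black lines for group means and a dashed line at 1 FPKM; the open triangle is a LIP library with no Tlr3 count, drawn at the foot of the axis. Tlr2 and Tlr13 are the highest in all 6 libraries, the LIP libraries lie above the Ctrl libraries for Tlr2, Tlr4, Tlr5, Tlr6, Tlr7, Tlr8 and Tlr13, and the groups overlap for Tlr1 and Tlr9.

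The genes of the most abundant receptors differ in their start regions, which are printed here so that Tlr2, Tlr6 and Tlr13, which rose in LIP, can be read beside Tlr1, the neighbour of Tlr6, which did not pass the test. Each line runs 5′ to 3′ on the gene's strand from 250 bases before to 50 bases after a RefSeq start site (GRCm38.p6), and capitals mark motif matches. RefSeq gives 2 starts each for Tlr1 and Tlr6, and the window nearest the start in the deposited table was taken as the first window of a gene. The Tlr2 window is chr3:83841559-83841858 (minus strand), with a RefSeq start 159 bases from the one listed in the deposited table. The Tlr1 and Tlr6 windows are chr5:64933509-64933808 and chr5:64959999-64960298 (both minus strand), and the Tlr13 window is chrX:106143025-106143324 (plus strand). The window of the other Tlr6 start, 882 bases away, is chr5:64959117-64959416 and is shown because its matches differ from those of the first.
Tlr2: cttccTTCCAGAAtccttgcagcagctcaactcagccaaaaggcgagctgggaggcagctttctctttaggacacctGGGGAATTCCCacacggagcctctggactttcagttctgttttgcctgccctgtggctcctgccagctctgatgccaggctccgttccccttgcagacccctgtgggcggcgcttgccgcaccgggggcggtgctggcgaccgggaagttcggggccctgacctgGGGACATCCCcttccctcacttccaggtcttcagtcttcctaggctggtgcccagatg
Tlr1: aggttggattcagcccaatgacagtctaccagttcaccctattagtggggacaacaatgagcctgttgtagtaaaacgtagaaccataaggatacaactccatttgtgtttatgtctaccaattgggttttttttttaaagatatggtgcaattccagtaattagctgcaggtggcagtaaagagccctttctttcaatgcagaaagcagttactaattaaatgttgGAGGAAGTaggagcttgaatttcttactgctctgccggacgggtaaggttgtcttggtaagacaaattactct
Tlr6: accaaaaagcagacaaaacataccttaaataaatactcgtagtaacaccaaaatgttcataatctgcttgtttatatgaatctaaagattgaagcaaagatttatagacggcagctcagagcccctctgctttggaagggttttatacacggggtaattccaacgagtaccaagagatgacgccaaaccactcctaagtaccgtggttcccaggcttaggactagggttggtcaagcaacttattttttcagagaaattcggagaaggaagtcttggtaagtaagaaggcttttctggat
Tlr6, other start: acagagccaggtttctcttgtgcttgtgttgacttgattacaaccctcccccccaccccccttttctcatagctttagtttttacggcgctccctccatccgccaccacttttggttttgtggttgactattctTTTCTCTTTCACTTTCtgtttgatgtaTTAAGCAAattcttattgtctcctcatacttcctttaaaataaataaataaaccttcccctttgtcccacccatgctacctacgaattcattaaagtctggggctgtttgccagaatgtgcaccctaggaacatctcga
Tlr13: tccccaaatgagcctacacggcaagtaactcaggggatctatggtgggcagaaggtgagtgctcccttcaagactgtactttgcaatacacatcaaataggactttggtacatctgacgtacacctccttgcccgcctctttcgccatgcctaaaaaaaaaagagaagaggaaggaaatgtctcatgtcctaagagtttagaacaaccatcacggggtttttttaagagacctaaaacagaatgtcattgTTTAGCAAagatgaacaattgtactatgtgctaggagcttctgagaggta

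The windows were searched on both strands for the NF-kB consensus, for PU.1 (GAGGAAGT), for C/EBP (TTNCNNAA), for AP-1 (TGANTCA) and for the interferon-stimulated response element. The Tlr2 window held 3 NF-kB matches, of which those at -173 to -164 and -172 to -163 overlap and the third spans the start site from -8 to 2. It also held 1 C/EBP match at -245 to -238. The Tlr1 window held 1 PU.1 match at -23 to -16, the Tlr13 window held 1 C/EBP match at 1 to 8, and the first Tlr6 window held no match to any of these motifs. The window of the other Tlr6 start held 2 overlapping matches to the interferon-stimulated response element and 1 to C/EBP, and that of the other Tlr1 start, 862 bases from the listed one, held none. Among 32851 RefSeq promoters of the same 300 bases, 8.46% held an NF-kB match, 3.2% a PU.1 match, 40.7% a C/EBP match, 7.81% an AP-1 match and 3.44% an interferon-stimulated response element. Base composition also differed: the Tlr2 window had 62.0% GC, against 40.3% for the first windows of Tlr1 and Tlr6 and 43.3% for Tlr13. These windows held 11 CpG for Tlr2, 3 for Tlr1, 7 for Tlr6 and 5 for Tlr13, and the median promoter had 7. Matches are descriptions of letters and were not tested as binding sites. A promoter sequence was found for 8 of the 10 receptors, all but Tlr4 and Tlr7. Of those not printed, the Tlr3 window held 1 NF-kB and 2 C/EBP matches. That of Tlr9 held 1 match each to PU.1, AP-1 and C/EBP, that of Tlr8 held 5 to C/EBP, and that of Tlr5 held none. Matches thus occurred also in receptors that did not rise, and were absent from some that did.

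For the comparison of LIP with Ctrl, a floor of 1 on the mean FPKM of the 6 libraries was set, which kept 7 of the 10 receptors and left out Tlr3, Tlr5 and Tlr9. Of the 7 tested receptors, 6 passed higher in LIP, where 26.5% of all tested genes did. No tested receptor had a log2 fold change below 0, while 27.2% of all tested genes passed lower. The median log2 fold change was 1.87 over the 4 tested surface receptors and 1.65 over the 3 tested endosomal receptors, and over all tested genes it was -0.09. The floor bears on these values: without the filter, the endosomal Tlr3 and Tlr9 had log2 fold changes of -1.76 and -0.70 and did not pass. The surface receptor Tlr5 had 2.21 there and passed. By groups, 3 of 4 tested surface and 3 of 3 tested endosomal receptors rose. In each of the 6, every LIP library stood above every Ctrl library, as in 30.3% of all tested genes, and no tested receptor had every LIP library below every Ctrl library, as in 33.1%. The 21 neutrophil genes that were higher in the same libraries had a median of 1.84, so the receptors are set against those genes further on.

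Values per library below are CPM, counts scaled to library size after TMM normalization, a scale for comparing 1 gene between libraries and not different genes. Tlr2, the partner that all lipoprotein-binding pairs share (chr3:83836272-83841767, GRCm38, 1 coding exon), read 383, 246 and 370 CPM in Ctrl replicates 1 to 3 and 1169, 1193 and 1151 CPM in LIP replicates 1 to 3. The lowest LIP library stood far above the highest Ctrl library, and the LIP libraries lay closer together than the Ctrl libraries. Tlr2 rose by a log2 fold change of 1.81 (SE 0.15, 95% interval 1.48 to 2.15), or 3.52-fold, with an edgeR Benjamini-Hochberg adjusted p of 4.14e-06.

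Tlr6 (chr5:64952031-64960048) and Tlr1 (chr5:64924679-64933561) encode the alternative partners of TLR2 and are neighbours on the same strand, 18469 bases apart. Tlr6 read 30.3, 24.9 and 43.6 CPM in Ctrl and 122, 131 and 121 CPM in LIP, so that the groups were separate. Its level rose by a log2 fold change of 1.92 (SE 0.19, 95% interval 1.50 to 2.35), or 3.80-fold (edgeR adjusted p = 1.58e-05). Tlr1 read 25.6, 17.7 and 32.0 CPM in Ctrl and 26.2, 35.4 and 35.4 CPM in LIP, and the groups overlapped. The log2 fold change of Tlr1 was 0.37 (SE 0.24, 95% interval -0.16 to 0.89), with an edgeR adjusted p of 0.215, so that a change of up to 0.89 in log2 was not told apart from none. The transcripts of these neighbours are alike over long stretches: 454 stretches of 50 bases occur in both, the longest shared run is 229 bases, and 15.4% of the stretches of Tlr1 and 12.3% of those of Tlr6 occur in some other gene. How reads from these stretches were assigned is not given in the sources used here, so the separate values of Tlr1 and Tlr6 carry that uncertainty.

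Tlr4, the LPS receptor (chr4:66827584-66930284), had the largest log2 fold change of the 7 tested receptors. It read 17.7, 9.50 and 14.2 CPM in Ctrl and 84.2, 79.7 and 83.7 CPM in LIP. All LIP libraries lay well above all Ctrl libraries. Tlr4 rose by 2.58 in log2 (SE 0.22, 95% interval 2.10 to 3.06), or 5.97-fold, with an edgeR adjusted p of 4.54e-06. Monocyte and macrophage markers, of which 11 of 14 were higher in the same libraries, moved beside Tlr4, and their part in its level was not tested.

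Tlr5, the flagellin receptor (chr1:182954788-182976044), had too low a mean FPKM (0.765) for the main comparison. Its raw counts came to 104, 63 and 107 over the Ctrl libraries and to 394, 357 and 287 over the LIP libraries, with no overlap after scaling. In a fit of all 29097 genes without the filter, where 8.35% of genes passed higher, the log2 fold change of Tlr5 was 2.21 (SE 0.39, 95% interval 1.30 to 3.12; edgeR adjusted p = 0.00578).

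Among the endosomal receptors, Tlr13 (chrX:106143204-106160493) took most of the signal. It read 194, 107 and 171 CPM in Ctrl and 613, 512 and 628 CPM in LIP, in separate ranges. Tlr13 rose by 1.89 in log2 (SE 0.19, 95% interval 1.46 to 2.32), or 3.71-fold (edgeR adjusted p = 1.9e-05), close to the value of Tlr2.

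Tlr7 (chrX:167304929-167330558) and Tlr8 (chrX:167242696-167264329) encode the RNA sensors that lie next to each other, 40599 bases apart, and their transcripts share no run over 13 bases. Tlr7 read 18.3, 18.8 and 20.9 CPM in Ctrl and 43.2, 40.3 and 31.8 CPM in LIP. The Ctrl libraries were tightly grouped and LIP replicate 3 stood lowest of its group, still above every Ctrl library. Tlr7 rose by 0.99 in log2 (SE 0.18, 95% interval 0.59 to 1.40), or 1.99-fold (edgeR adjusted p = 0.00112), the smallest rise among the 6. Tlr8 read 11.2, 6.80 and 7.61 CPM in Ctrl and 28.6, 23.6 and 28.2 CPM in LIP. Tlr8 rose by 1.65 in log2 (SE 0.25, 95% interval 1.10 to 2.20), or 3.14-fold (edgeR adjusted p = 0.000298).

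Tlr9 and Tlr3 were the receptors with a lower group mean in LIP than in Ctrl. Tlr9 (chr9:106222598-106226883), the DNA sensor, had 304, 156 and 118 counts in Ctrl and 54, 68 and 161 counts in LIP, and the groups overlapped through LIP replicate 3. In the fit without the filter, where 7.51% of genes passed lower, its log2 fold change was -0.70 (SE 0.64, 95% interval -2.16 to 0.77; edgeR adjusted p = 0.473). Tlr3 (chr8:45395665-45411080), the sensor of RNA duplexes, had 41, 27 and 37 counts in Ctrl and 0, 1 and 23 in LIP, where LIP replicate 3 held nearly all of the counts. Its log2 fold change of -1.76 had an interval from -5.66 to 2.14 (edgeR adjusted p = 0.489), too wide for a direction at this depth. Tlr3 overlaps an antisense gene, Gm45542, over 698 bases, and that gene had 10 counts in LIP replicate 2 and 0 in the other libraries. B cell markers, which fell in LIP with a median log2 fold change of -2.56, moved beside Tlr9, a receptor that B cells are known to carry; their part in its level was not tested.

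The Ctrl libraries were more spread than the LIP libraries for several receptors, and Ctrl replicate 2 was the lowest of its group for 8 of the 10. Its share of counts from neutrophil genes was 1.94%, between the 1.84% and 1.98% of the other Ctrl libraries, but single genes of that list went both ways. Csf3r read 1383, 914 and 1359 CPM in Ctrl replicates 1 to 3 and Itgam 132, 73.5 and 134 CPM, whereas S100a8 read 4007, 5295 and 4825 CPM. Low values in Ctrl replicate 2 were thus not particular to the receptors. Without Ctrl replicate 2 the same number of receptors, 6, passed higher, with log2 fold changes of 1.66 for Tlr2 and 2.39 for Tlr4 (edgeR adjusted p = 2.7e-07 and 4.41e-06).

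As a set, the receptors summed to 210, 130 and 200 FPKM in Ctrl and to 502, 496 and 505 FPKM in LIP. The endosomal receptors made up 27.1%, 25.2% and 24.5% of this sum in Ctrl and 26.6%, 22.9% and 26.9% in LIP, so that the balance of surface and endosomal transcripts overlapped between groups. Tlr2 held 63.4% ± 0.447 of the sum in Ctrl and 64.6% ± 1.84 in LIP, and Tlr13 held 20.8% ± 1.54 and 22.6% ± 2.20. The shares of Tlr1, Tlr3, Tlr4, Tlr5, Tlr7 and Tlr9 did not overlap between groups: Tlr4 went from 1.41% ± 0.152 to 2.47% ± 0.0445, Tlr1 from 4.28% ± 0.561 to 1.61% ± 0.276 and Tlr7 from 2.82% ± 0.699 to 1.57% ± 0.243. Tlr5 went from 0.178% ± 0.0142 to 0.241% ± 0.0300, Tlr9 from 0.535% ± 0.217 to 0.0921% ± 0.0609 and Tlr3 from 0.0633% ± 0.0023 to 0.0050% ± 0.0083. A share also moves with Tlr2 and Tlr13, which hold most of the sum, and in CPM the groups overlapped for Tlr9 and Tlr3. For single genes in CPM, every LIP library stood above every Ctrl library in 30.3% of all tested genes and below in 33.1%.

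Ratios within a library do not depend on how libraries are scaled against each other, so 10 ratios of FPKM were compared. They still depend on the mix of cells in a library. B cell markers took 1.00 to 1.05% of counts in Ctrl and 0.167 to 0.182% in LIP, and the part of such cells in the ratios was not tested. With 3 libraries against 3, the smallest p that an exact two-sided permutation test allows is 0.1, and no ratio could pass 0.05. The ratio of Tlr6 to Tlr1 was 1.06, 1.27 and 1.22 in Ctrl and 4.19, 3.34 and 3.08 in LIP (exact permutation p = 0.1, adjusted p = 0.143), so that the partners were near equal in Ctrl and Tlr6 led in LIP. Tlr1 against Tlr2 went from 0.0675 ± 0.0091 to 0.0248 ± 0.0041 with separate groups, while Tlr6 against Tlr2 was 0.0803 ± 0.0156 and 0.0863 ± 0.0025 with overlap (exact permutation p = 0.7).

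Tlr4 against Tlr2 went from 0.0223 ± 0.0025 to 0.0382 ± 0.0017, all LIP libraries above all Ctrl libraries. Tlr13 against Tlr2 was 0.328 ± 0.0256 and 0.350 ± 0.0433 and overlapped (exact permutation p = 0.6). Within the endosomal receptors, Tlr7 against Tlr13 went from 0.137 ± 0.0431 to 0.0702 ± 0.0152 without overlap, whereas Tlr8 against Tlr13 overlapped, at 0.0660 ± 0.0114 and 0.0550 ± 0.0012 (exact permutation p = 0.4). Of the 10 ratios, 7 had separate groups and so the smallest p the design gives. These were the ratios of Tlr6 to Tlr1, Tlr1 to Tlr2, Tlr4 to Tlr2 and Tlr7 to Tlr13. The rest of the 7 were those of Ly96 and Cd14 to Tlr4 and of Unc93b1 to Tlr13, given with the partner genes. Separate groups were common also for single genes in CPM, with LIP above in 30.3% and below in 33.1% of all tested genes.

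**Figure D2:**
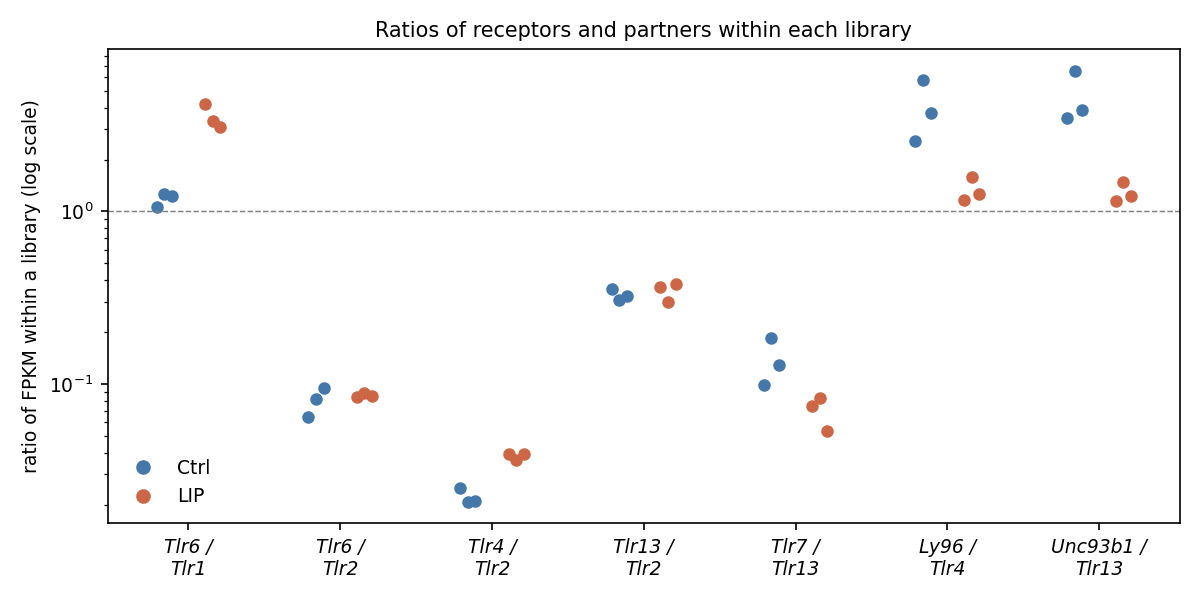
Ratio of FPKM between a pair of genes within each library on a log scale, with Ctrl in blue, LIP in orange and a dashed line where both genes are equal. The LIP libraries lie above the Ctrl libraries for Tlr6 to Tlr1 and Tlr4 to Tlr2, below them for Tlr7 to Tlr13, Ly96 to Tlr4 and Unc93b1 to Tlr13, and overlap them for Tlr6 to Tlr2 and Tlr13 to Tlr2.

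Since the neutrophil genes were themselves higher in LIP, the receptors were also expressed relative to the 21 mature neutrophil genes, which include Ly6g and Itgam, the genes of the antigens used in the sort. On this scale most of the transcriptome stood lower in LIP: the median log2 fold change of all tested genes was -1.77, with 1.04% of genes passing higher and 85.7% passing lower. Of the 7 tested receptors, 1 passed higher, 2 passed lower and 4 did not pass. Tlr4 rose also relative to the mean of the neutrophil genes, by 0.91 in log2 (95% interval 0.43 to 1.39; edgeR adjusted p = 0.00206). The interval takes that mean as fixed and leaves out the spread among the 21 genes. With TMM these ran from 0.42 for Cybb to 2.51 for Mmp8 in log2, beside 2.58 for Tlr4, so Tlr4 was not apart from every one of them. In FPKM per 1000 FPKM of the geometric mean of the neutrophil genes, Tlr4 read 20.7, 11.4 and 15.8 in Ctrl and 31.1, 27.9 and 30.8 in LIP, again without overlap.

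Tlr2, Tlr6, Tlr8 and Tlr13 did not pass in either direction relative to the neutrophil genes. Their log2 fold changes on the neutrophil scale were 0.14 (95% interval -0.16 to 0.44) for Tlr2, 0.26 (-0.13 to 0.65) for Tlr6, -0.02 (-0.63 to 0.58) for Tlr8 and 0.22 (-0.18 to 0.62) for Tlr13, with edgeR adjusted p of 0.343, 0.192, 0.937 and 0.264. Tlr1 fell by 1.30 in log2 (95% interval -1.81 to -0.80; edgeR adjusted p = 0.000204), from 47.9 ± 11.8 to 19.4 ± 2.97 per 1000. Tlr7 fell by 0.68 (95% interval -1.12 to -0.25; edgeR adjusted p = 0.00674), from 30.5 ± 1.28 to 19.0 ± 2.89 per 1000. Without the filter, Tlr5 had a log2 fold change of 0.51 (edgeR adjusted p = 0.398) and Tlr9 one of -2.41 (edgeR adjusted p = 0.0182) on this scale. The sign for Tlr1, Tlr7 and Tlr8 therefore depended on the scale, while Tlr4 passed higher on both.

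**Figure D3:**
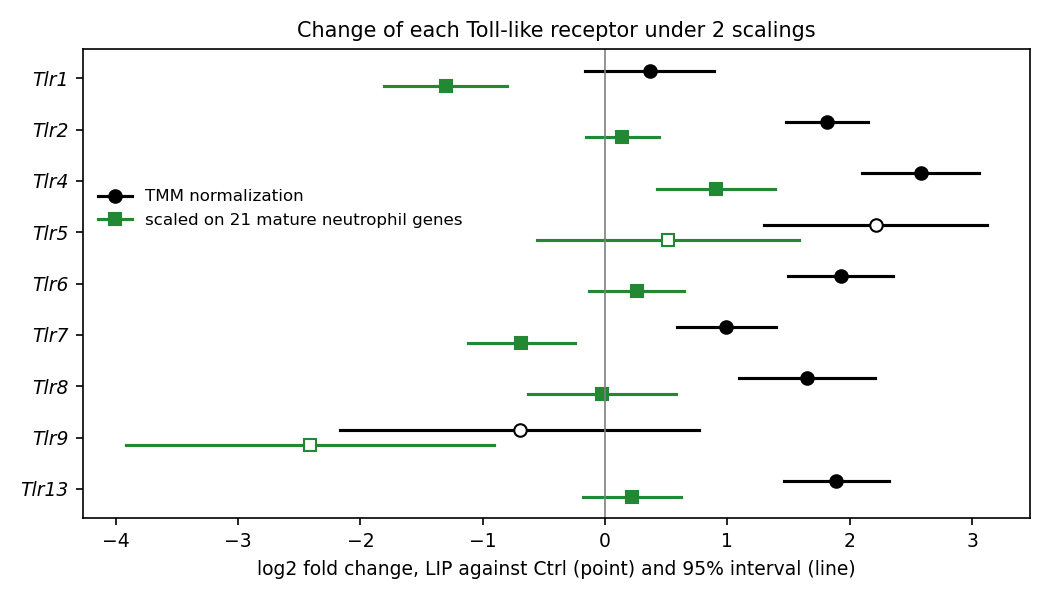
Log2 fold change of LIP against Ctrl with its 95% interval for each receptor, in black after TMM normalization and in green after scaling on 21 mature neutrophil genes; open symbols are receptors fitted without the filter on low values, and Tlr3 is left out because its interval runs from -5.66 to 2.14. With TMM the intervals of Tlr2, Tlr4, Tlr5, Tlr6, Tlr7, Tlr8 and Tlr13 lie above 0, and on the neutrophil scale that of Tlr4 alone does, at 0.43 to 1.39.

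Genes with a pattern over the 6 libraries most like that of the leading receptors were sought by the root mean square difference of centred log2 CPM among 10439 tested genes. For Tlr2 the closest was Csf3r, the receptor for granulocyte colony-stimulating factor (0.0240), followed by Atp6v0a1 (0.0263), a subunit of the vacuolar proton pump, and Picalm (0.0572), an endocytic adaptor. For Tlr13 they were Cpd, a carboxypeptidase (0.0892), Mmp25, a membrane-bound metalloproteinase of leukocytes (0.0982), and Dck, a nucleoside kinase (0.0984).

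The molecules that hand ligands to the surface receptors did not move as a block. Of 6 tested co-receptor genes, 3 rose, 2 fell and 1 did not pass, with a median log2 fold change of 0.54, where 26.5% of all tested genes passed higher and 27.2% lower. Cd14, which delivers LPS to the TLR4 complex, rose from 1393 ± 58.6 to 4296 ± 45.2 CPM (log2 fold change 1.63, SE 0.07; edgeR adjusted p = 8.5e-08). Ly96, which encodes MD-2, the protein that holds LPS on TLR4, rose from 9.38 ± 0.901 to 20.3 ± 2.70 CPM (log2 fold change 1.11; edgeR adjusted p = 0.0021). Both had smaller log2 fold changes than Tlr4, and within libraries the FPKM ratio of Ly96 to Tlr4 went from 4.02 ± 1.62 to 1.34 ± 0.220 and that of Cd14 to Tlr4 from 343 ± 97.1 to 167 ± 5.33, with separate groups in each case (exact permutation p = 0.1, the smallest possible).

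Lbp, the LPS-binding protein, rose with a log2 fold change of 1.24 (edgeR adjusted p = 0.0151), and Cd36, a scavenger receptor that works with TLR2, stood at -0.02 (edgeR adjusted p = 0.923). The pair that fell was Cd180 (-1.11, edgeR adjusted p = 0.005) and Ly86 (-0.97, edgeR adjusted p = 6.87e-05), a TLR4-like receptor and its MD-1 partner known from B cells. B cell markers fell in the same libraries, and their part in this fall was not tested.

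The genes that fold, carry and cut the receptors held 5 of 14 higher, 3 lower and 6 not passing, shares near the 26.5% and 27.2% of all tested genes, with a median log2 fold change of 0.15. Unc93b1, the carrier of the endosomal receptors, was at 478 ± 14.7 CPM in Ctrl and 525 ± 26.2 CPM in LIP (log2 fold change 0.14, SE 0.09; edgeR adjusted p = 0.210). Its FPKM ratio to Tlr13 went from 4.63 ± 1.67 to 1.29 ± 0.172, with all LIP libraries below all Ctrl libraries. The carrier transcript was thus several times as abundant as that of Tlr13 in Ctrl and near it in LIP.

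Slc15a3, a transporter of endolysosomes, had the largest rise of the group at 1.70 in log2 (edgeR adjusted p = 1.14e-05), and the proteases Ctsl (1.15) and Ctsb (0.95) that can cut receptor ectodomains rose as well (edgeR adjusted p = 0.00121 and 4.44e-05). Cnpy3 (0.37) and Tmed7 (0.42), which help receptors to the surface, rose by less (edgeR adjusted p = 0.049 and 0.0403). Hsp90b1, the chaperone gp96 that Toll-like receptors need for folding, fell by 0.71 in log2 (edgeR adjusted p = 0.000199). Slc15a4, an endolysosomal transporter needed for TLR7 and TLR9 responses, fell by 0.68, and Dnase2a, a lysosomal nuclease, fell by 1.19 (edgeR adjusted p = 0.00689 and 0.00444). Of the genes that did not pass, Ctss, the gene of cathepsin S, stood at 0.16, Lgmn at -0.28, Ap3b1 at 0.31, Lrrc59 at -0.06 and Cnpy4 at -0.89 in log2.

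Downstream of the receptors, 6 of 15 tested adaptor and kinase genes rose and the other 9 did not pass, with a median log2 fold change of 0.38, against 26.5% of all tested genes higher and 27.2% lower. Myd88, the adaptor of nearly all members, rose from 192 ± 5.95 to 579 ± 15.2 CPM (log2 fold change 1.59, SE 0.09; edgeR adjusted p = 3.9e-07). Tirap, which brings MyD88 to TLR2 and TLR4, rose from 22.5 ± 1.41 to 81.8 ± 3.52 CPM (log2 fold change 1.86, SE 0.13; edgeR adjusted p = 1.74e-06). The adaptors of the MyD88-independent branch were scarce, at a mean FPKM of 1.64 for Ticam1 and 0.749 for Ticam2, against 132 for Myd88. Ticam1, which serves TLR3 and TLR4, read 3.45 ± 1.67 and 7.56 ± 3.30 CPM with overlap (edgeR adjusted p = 0.0640). Ticam2, which links TLR4 to that adaptor, was under the filter at 3.11 ± 1.24 and 6.66 ± 2.17 CPM. Irak4, the first kinase of the MyD88 complex, rose (1.35, edgeR adjusted p = 5.26e-05), as did Irf7, a transcription factor behind TLR7 and TLR9 (1.16, edgeR adjusted p = 3e-05), whereas Irak1 (-0.36), Irak2 (0.16) and Traf6 (-0.22) did not pass.

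Of 9 tested inhibitors of the pathway, 5 rose and 1 fell, beside the same shares of all tested genes. Nlrx1, a mitochondrial regulator, rose most at 2.21 in log2 (edgeR adjusted p = 1.41e-06), Tnfaip3, which encodes the ubiquitin-editing enzyme A20, had the highest level and rose by 1.36 (edgeR adjusted p = 0.000328), and Sigirr, a decoy-like member of the same receptor superfamily, fell by 1.42 (edgeR adjusted p = 0.000438). Of 20 tested genes that Toll-like receptor signals are known to induce, 16 rose and 1 fell, with a median log2 fold change of 1.50. Cxcl2, a neutrophil chemokine with the highest level of this list, rose from 4455 ± 292 to 15237 ± 361 CPM (log2 fold change 1.77; edgeR adjusted p = 5.31e-08), and Cd83, an activation marker also carried by B cells, fell from 159 ± 5.12 to 35.5 ± 5.30 CPM (log2 fold change -2.16; edgeR adjusted p = 7.7e-07). Over the 5 lists together, 35 of 64 tested genes passed higher and 7 lower, against 26.5% and 27.2% of all tested genes. Beside these lists stand the neutrophil genes, 21 of 21 higher. Relative to those genes, 2 of the 64 passed higher and 43 lower, on a scale where 1.04% of all tested genes passed higher and 85.7% lower.

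**Figure D4:**
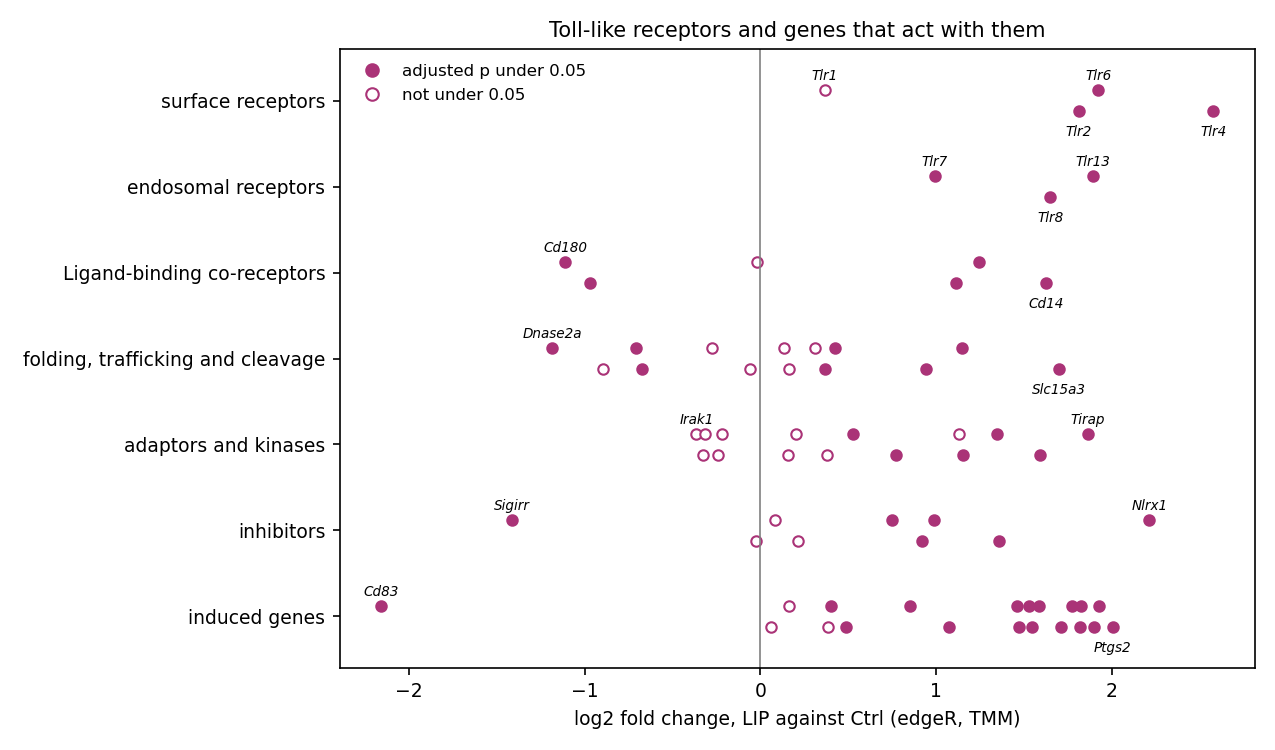
Log2 fold change (edgeR, TMM) of the tested receptors and of the tested genes in 5 lists of genes that act with them, 1 point per gene, filled where the adjusted p is under 0.05 and set at alternating heights for legibility; the receptors and the genes at both ends of each list are named. The surface and endosomal receptors and the induced genes lie mostly right of 0, while the co-receptor and trafficking lists spread to both sides, from -1.11 to 1.63 and from -1.19 to 1.70.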

How the data were processed

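RNA from 6 libraries of sorted PB neutrophils, 3 Ctrl and 3 LIP, was analysed. Groups and replicate numbers came from the sample labels. The table that the authors deposited holds raw counts per gene and FPKM, which the authors normalized by gene length and library total. Reads were paired-end (150 bp). The submitters' processing notes name cutadapt 1.9, FastQC and GRCm38. The aligner, the counting tool, the use of strand and the way reads shared between genes were handled are not given in the sources used here. No molecular identifiers were used, so counting error understates technical error.

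Counts were fitted with edgeR 4.0.16 (R 4.3.3; glmQLFit and glmQLFTest, TMM, no replicate block) over the 10440 genes whose FPKM averaged 1 or more, with Benjamini-Hochberg adjustment over them and a threshold of 0.05. Standard errors were taken from the log2 fold change and the F statistic. Of rows that shared a name (50 names), the more abundant was kept. Receptors under the filter were fitted over all 29097 genes, and other scalings and left-out libraries in that fit were chosen after seeing the data. The scripts were tested on simulated data. Total counts of 52186555 to 57262379 keep counting error under the spread between libraries. No pair of replicates had counts within sampling noise (chi-square per gene, 42.5 to 85.2). P-values measure the spread between pools of 5 mice.

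The receptors and all gene lists were chosen with earlier results of these data known. Values were given for every receptor, for the co-receptor, trafficking and adaptor genes that act with them, for the most abundant and the most changed gene of each other list, and for the 3 genes nearest in pattern to Tlr2 and to Tlr13. Irak1, Irak2, Irak4, Irf7 and Traf6 were added after their values were seen. Alternatives were DESeq2 1.42.0, limma 3.58.1 on log2(FPKM + 1) and log2(FPKM + 0.1), other scalings and filters, a replicate block and leaving out each library. Positions are those of the deposited table (GRCm38), and 8 of 10 receptors have the same ends in GENCODE M21. Promoters are from RefSeq. Other data types of the study were not analysed here.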

Additional observations from a re-analysis of the deposited data

How the results depend on the processing

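Scaling was the choice that mattered. Relative to the 21 mature neutrophil genes, 1 receptor passed higher and 2 lower (6 and 0 with TMM), 2 pathway genes passed higher and 43 lower (35 and 7 with TMM), and 9051 of all genes passed (5601 with TMM). On that scale Tlr1 was at -1.30, Tlr7 at -0.68 and Tlr8 at -0.024 in log2, against values above 0 with TMM, and all genes shifted by -1.68. Scaling on library totals shifted all genes by -0.32, so that 14 pathway genes passed lower and 31.6% of calls were higher (49.4% with TMM). With limma on log2(FPKM + 1) and log2(FPKM + 0.1), 32.1% and 32.3% were higher. A filter at a mean FPKM of 5 left 3637 calls, because fewer genes were tested. Under these and the other alternatives apart from the neutrophil scale, every tested receptor that rose kept its direction and its call wherever it was tested. Leaving out 1 library at a time gave 6 receptors higher and 0 lower each time, 32 to 35 pathway genes higher and 7 to 8 lower, and 4674 to 5385 calls in all.

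With the replicate number as a block, which pairs libraries by number, 6 receptors passed higher and 0 lower, 34 pathway genes higher and 8 lower, and 5546 genes in all. Same-numbered libraries come from different mice, and their deviations from the group mean correlated by 0.0135, 0.0522 and 0.0302. With 3 libraries in a group, such correlations cannot show whether same-numbered libraries were processed together. By this measure Ctrl replicates 2 and 3 were closest to the LIP replicate of their own number, and Ctrl replicate 1 was closest to LIP replicate 3. The block changed no call of a receptor. Depth limits Tlr3, with at most 41 counts in a library. Reads shared between Tlr1 and Tlr6 cannot be reassigned from counts.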

Other observations

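The remaining receptors of the mouse family were below the filter on low values. Tlr11, whose protein binds a parasite profilin in endosomes, read 0.0332 ± 0.0575 CPM in Ctrl and 0.733 ± 0.719 CPM in LIP (SD, n = 3) with overlap. Tlr12, its partner, read 2.24 ± 0.771 CPM in Ctrl and 1.19 ± 0.387 CPM in LIP, with every LIP library below every Ctrl library, as for 33.1% of all tested genes.

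Markers of further cells that can share the blood sort were read beside the receptors, and their part in the receptor levels was not tested. The counts below stand beside 26.5% of all tested genes passing higher in LIP and 27.2% passing lower. Platelet and megakaryocyte genes rose in 10 of 10, led in level by Ppbp, and summed to 0.126 to 0.144% of counts in Ctrl and 0.248 to 0.301% in LIP. Natural killer cell genes rose in 4 of 9, with sums of 0.0469 to 0.0523% and 0.0466 to 0.0505%. Of 8 conventional dendritic cell genes, 4 were under the filter and 4 of 4 tested rose, with a median log2 fold change of 1.62. The 8 together were scarce, at sums of 0.0037 to 0.0045% and 0.0069 to 0.0086%. Of 5 tested plasmacytoid dendritic cell genes 1 rose and 3 fell, led by Ly6d (log2 fold change -2.57), with sums of 0.0997 to 0.104% and 0.0198 to 0.0236%. Erythroid genes fell in 8 of 8, and Klf1 was at 0 in every LIP library. Of 7 tested eosinophil and basophil genes 2 rose and 1 fell.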
